A study of Mus musculus with 5 samples.

Results

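Mitochondrial ribosomal protein genes were taken as all rows whose symbol is Mrpl or Mrps, a number and at most 1 lower-case letter. They came to 78 of the 40879 gene symbols counted, 49 named Mrpl for the large subunit and 29 named Mrps for the small subunit. Messenger RNA was measured by 3′-end sequencing of BV-2 cells, an immortalised mouse microglial line, in 5 libraries. These were 1 from a culture labelled Normal control, 1 of cells exposed to urban particulate matter (UPM, 50 μg/mL for 23 h), and 1 each of cells pretreated for 1 h with the antidepressant trazodone (TZ) and then exposed to UPM in the same way, with TZ at 1.25 μg/mL (TZ 1.25), 2.5 μg/mL (TZ 2.5) or 5 μg/mL (TZ 5). Whether the control received a vehicle is not stated. Every library is thus of 1 cell line in culture with no tissue around it, and the label giving the source as brain names the origin of the line. The design asks how the particles alter microglia and what trazodone changes in exposed cells. With 1 library per group, a comparison of 2 groups is one of 2 libraries and has no replicate check.

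Mitochondria carry their own ribosomes, which translate the few messenger RNAs of the mitochondrial genome, all of them for subunits of the respiratory chain and ATP synthase. The ribosomal RNAs come from the mitochondrial genome, whereas the proteins are encoded in the nucleus, made in the cytosol and imported. Some of these proteins descend from bacterial ribosomal proteins and others have no bacterial counterpart, and symbols do not always match structures. In mammalian ribosomes the products of Mrps30 and Mrps18a sit in the large subunit, and Mrps36 (now also called Kgd4) encodes a subunit of the α-ketoglutarate dehydrogenase complex.

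The totals ran from 6829720 to 7696168 counts per library. Levels are CPM (counts divided by the library total and multiplied by 1e6) after scaling by TMM, a trimmed mean of expression ratios between libraries, with factors of 0.991 to 1.01. The microglial character of the cells was checked on 12 markers. Of these, 9 averaged at least 10 CPM, among them Csf1r, Cd68 and Tyrobp, while Sall1, P2ry12 and Tmem119, markers of microglia in the intact brain, were below that, at 0 to 7.4 CPM in a library. Summed over their lists, markers of neurons (5 genes), astrocytes (4), oligodendrocytes (4) and fibroblasts (4) reached at most 3.90 CPM in a library. The endothelial list reached 260 to 294 CPM, nearly all of it Flt1, with Cldn5 at 0 to 0.3 CPM. In bulk RNA, fewer cells expressing a gene and less of its RNA per cell cannot be told apart.

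The promoters of the 5 members called in the dose fit, described further on, are printed so that their motifs can be compared. Each covers 250 bases before to 50 bases after the RefSeq start, read 5′ to 3′, and capitals mark a match to 1 of 5 motifs searched on both strands.

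Mrpl12 (GRCm38.p6, chr11:120484387-120484686, plus strand): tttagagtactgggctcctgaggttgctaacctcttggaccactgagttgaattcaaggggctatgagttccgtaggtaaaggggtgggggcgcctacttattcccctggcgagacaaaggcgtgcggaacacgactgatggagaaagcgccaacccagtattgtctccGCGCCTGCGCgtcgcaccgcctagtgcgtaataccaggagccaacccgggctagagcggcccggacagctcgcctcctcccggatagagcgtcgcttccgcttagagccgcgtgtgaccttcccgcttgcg
Mrpl33 (GRCm38.p6, chr5:31613701-31614000, plus strand): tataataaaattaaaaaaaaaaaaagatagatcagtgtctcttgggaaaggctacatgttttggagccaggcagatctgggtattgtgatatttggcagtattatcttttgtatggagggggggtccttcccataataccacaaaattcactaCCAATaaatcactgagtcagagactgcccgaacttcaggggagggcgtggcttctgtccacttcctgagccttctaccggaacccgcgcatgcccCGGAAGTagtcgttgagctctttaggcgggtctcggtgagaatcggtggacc
Mrps14 (GRCm38.p6, chr1:160194965-160195264, plus strand): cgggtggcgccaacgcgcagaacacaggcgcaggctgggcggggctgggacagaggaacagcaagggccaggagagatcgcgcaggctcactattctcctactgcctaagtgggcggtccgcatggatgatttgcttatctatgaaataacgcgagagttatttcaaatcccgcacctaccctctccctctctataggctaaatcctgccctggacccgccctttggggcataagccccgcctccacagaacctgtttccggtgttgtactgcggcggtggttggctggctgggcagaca
Mrpl27 (GRCm38.p6, chr11:94653541-94653840, plus strand): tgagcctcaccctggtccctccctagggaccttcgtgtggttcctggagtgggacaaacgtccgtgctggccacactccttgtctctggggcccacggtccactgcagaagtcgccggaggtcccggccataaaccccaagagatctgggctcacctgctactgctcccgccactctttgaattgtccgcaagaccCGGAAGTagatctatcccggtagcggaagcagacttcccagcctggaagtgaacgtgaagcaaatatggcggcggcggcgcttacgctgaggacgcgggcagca
Mrps27 (GRCm38.p6, chr13:99344536-99344835, plus strand): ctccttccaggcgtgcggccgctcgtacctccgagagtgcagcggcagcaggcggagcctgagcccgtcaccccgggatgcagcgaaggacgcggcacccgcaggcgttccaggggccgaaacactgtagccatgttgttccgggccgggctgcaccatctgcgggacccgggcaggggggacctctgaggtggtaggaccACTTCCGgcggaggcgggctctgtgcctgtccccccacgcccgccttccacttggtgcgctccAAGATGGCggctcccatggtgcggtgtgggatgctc

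The Mrpl12 window held an NRF1 motif, the Mrpl33 window an ETS motif (ACTTCCG) and a CCAAT box (CCAAT), the Mrpl27 window an ETS motif, and the Mrps27 window an ETS motif and a YY1 motif (AAGATGGC). The Mrps14 window held none of the 5, the last of which was the TATA box (TATAAA). No match says only that these letters are not in the window. RefSeq windows matched 69 of the 78 members, with 75 windows in all, since some genes have several starts. NRF1, ETS and YY1 are transcription factor motifs known from promoters of nuclear genes for mitochondrial proteins. The NRF1 motif was in 13 of the 75 member windows (17.3%) and in 4.6% of all 32851 windows. The ETS motif was in 17 (22.7%) and in 6.42% of all, and the YY1 motif in 12 (16%) and in 2.75% of all. The CCAAT box was in 30 (40.0%) and in 37.4% of all, and the TATA box in 5 (6.67%) and in 13.6% of all. The member windows had a median of 21 CG dinucleotides and 58.7% G and C, and all windows had medians of 7 and 52.7%. These are descriptions of sequence, and the part of base composition in the shares was not tested.

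The members lie on 17 chromosomes in the mouse annotation (GENCODE M21, GRCm38, an earlier build than the one named for the counts, so used only for names and neighbours), with 11 on chromosome 11 and 8 on chromosome 17. A protein-coding gene started within 1000 bases on the opposite strand for 33 of the 78 (42.3%), against 10.9% of all 21924 protein-coding genes. Among them Mrps12 neighbours Sars2, the mitochondrial seryl-tRNA synthetase gene, and Mrps27 neighbours Ptcd2, which encodes another mitochondrial RNA-binding protein. Mrpl46 and Mrps11 are a pair of members that start beside each other. Exons of 28 members shared bases with a gene on the other strand and those of 8 with a gene on the same strand. No source used here says how counting handled strand, so reads of such genes may not be told apart. For Mrps27 the overlapping gene, 6430562O15Rik, was at 0 counts in all 5 libraries. For Mrpl27 it was Eme1, a DNA repair gene, with 171 (control), 223 (UPM), 169 (TZ 1.25), 179 (TZ 2.5) and 170 (TZ 5) counts. Exons of Mrpl12 and Mrpl33 overlap genes that the count files do not list. Pseudogene copies are annotated for Mrpl23, Mrpl27, Mrpl48 and Mrps36, under symbols that the count files do not list, and counts of these 4 genes are less certain.

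All 78 members had counts in every library, and 75 averaged at least 10 CPM. Because the method reads about 1 fragment per transcript from its 3′ end, CPM was not divided by gene length, and levels of different genes are set side by side only as tag frequencies. The median member averaged 55.8 CPM over the 5 libraries, and the members together made up 0.508% to 0.542% of all counts. The 5 with the highest mean level were Mrps5, of the small subunit body, at 206 CPM, Mrpl12 at 189, Mrpl45, which holds the ribosome at the inner membrane, at 179, Mrpl33 at 173 and Mrpl17 at 167 CPM. The 5 lowest were Mrpl22 at 14.9 CPM, Mrps33 at 11.7, Mrps18b at 3.74, Mrpl23 at 2.90 and Mrps36 at 1.12 CPM. The 3 members under 10 CPM had few counts, with 14 to 36 per library for Mrps18b, 13 to 29 for Mrpl23 and 3 to 13 for Mrps36. No fold between libraries is drawn from them at the main minimum of 10 CPM, while the dose fit includes them.

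**Figure D1:**
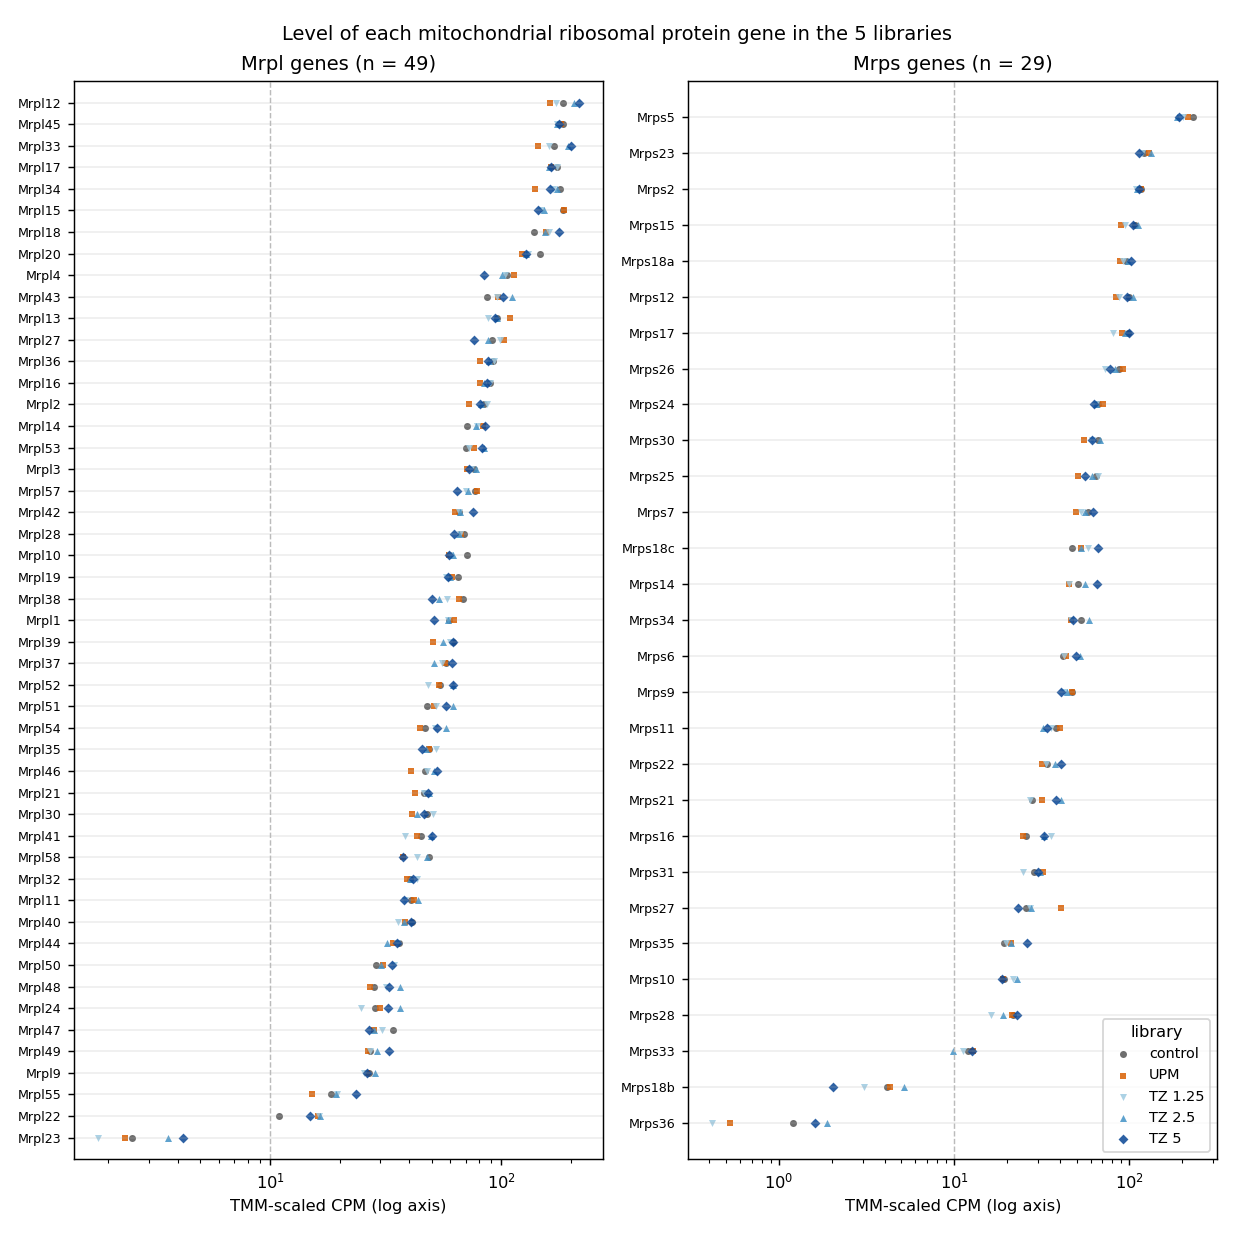
TMM-scaled CPM on a log axis for the 49 Mrpl and 29 Mrps genes, ordered by mean level with the highest at the top, with 1 symbol per library and a dashed line at 10 CPM. The 5 libraries lie close together for most genes, the UPM library stands apart for Mrps27, and Mrpl23, Mrps18b and Mrps36 lie under 10 CPM.

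Levels of single members varied little across the 5 libraries. The highest library exceeded the lowest by a median of 1.25-fold over the 75 members, against 1.29-fold over all 8341 genes with a mean of at least 10 CPM. A ratio of 1.5 or more was seen for 3 of the 75 (4%), namely Mrps27 at 1.76, Mrpl55 at 1.55 and Mrpl22 at 1.51, against 16.8% of all such genes. Median levels of the groups were 56.3 CPM for the 75 members and 45.2 CPM for all such genes. At the other end were Mrps2 and Mrpl45, both with ratios of 1.06. Mrpl45 had 186 CPM (control), 181 (UPM), 174 (TZ 1.25), 174 (TZ 2.5) and 177 (TZ 5).

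The Mrpl genes summed to 3614 CPM (control), 3465 (UPM), 3510 (TZ 1.25), 3631 (TZ 2.5) and 3600.0 (TZ 5). The Mrps genes summed to 1707 CPM (control), 1645 (UPM), 1591 (TZ 1.25), 1714 (TZ 2.5) and 1692 (TZ 5). UPM and TZ 1.25 were the low pair of libraries for both subunits, and the other 3 were close to each other. The UPM sum was 0.959 of control for Mrpl (95% counting interval 0.943 to 0.975) and 0.964 for Mrps (0.940 to 0.988). TZ 1.25 over UPM was 1.01 for Mrpl (0.995 to 1.03) and 0.967 for Mrps (0.943 to 0.992). TZ 2.5 over UPM was 1.05 for Mrpl (1.03 to 1.07) and 1.04 for Mrps (1.02 to 1.07), and TZ 5 over UPM was 1.04 (1.02 to 1.06) and 1.03 (1.00 to 1.05). Over control, TZ 1.25 was 0.971 for Mrpl (0.955 to 0.988) and 0.932 for Mrps (0.909 to 0.956). TZ 2.5 was 1.00 for both, with intervals of 0.988 to 1.02 for Mrpl and 0.979 to 1.03 for Mrps, and TZ 5 was 0.996 (0.979 to 1.01) and 0.991 (0.966 to 1.02). The ratio of Mrpl to Mrps counts was 2.12 in control, 2.11 in UPM, 2.21 in TZ 1.25 (2.16 to 2.26), 2.12 in TZ 2.5 and 2.13 in TZ 5. Its interval in TZ 1.25 overlapped those of TZ 2.5 and TZ 5 and, narrowly, that of control (2.07 to 2.16), but not that of UPM (2.06 to 2.15). These intervals cover counting error alone, and the spread between cultures is unknown.

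**Figure D2:**
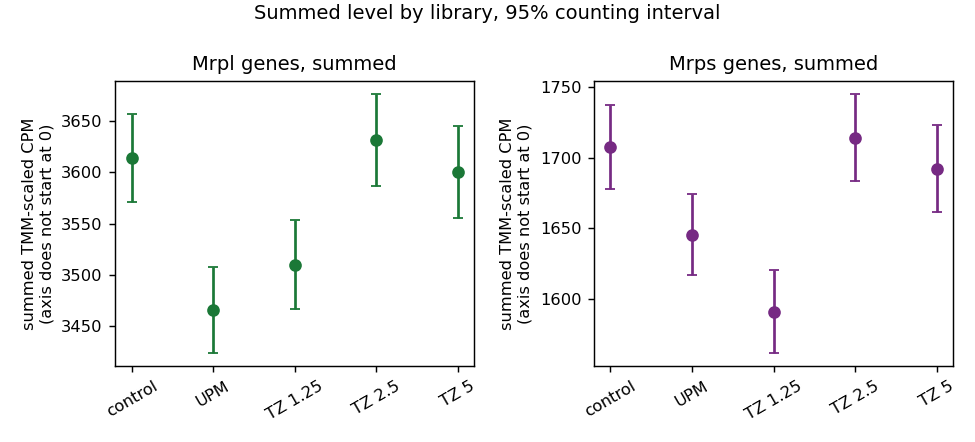
Summed TMM-scaled CPM of the Mrpl genes and of the Mrps genes in each library, with 95% counting intervals on axes that do not start at 0. Both sums are lowest in UPM and TZ 1.25. The widest gap in proportion to level is that of Mrps, with 1591 CPM in TZ 1.25 and 1714 CPM in TZ 2.5.

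UPM against control called 1 member. A gene was called where TMM-scaled CPM differed by at least 1.5-fold, the 95% exact conditional interval of the fold left out 1 and both libraries together averaged 10 CPM or more. This rule of size and counting error called 3.08% of all 8282 genes measured in this pair (1.67% higher, 1.41% lower) and 1 of the 75 members measured. Mrps27, which encodes a pentatricopeptide-repeat RNA-binding protein of the small subunit, had 40.5 CPM in UPM and 25.7 CPM in control, a fold of 1.58 (1.31 to 1.90). Among those not called, the next highest folds were 1.47 (1.10 to 1.97) for Mrpl22 and 1.17 (1.04 to 1.31) for Mrpl14, whose protein lies at the subunit interface. The lowest were 0.770 (0.658 to 0.901) for Mrpl58, a peptidyl-tRNA hydrolase built into the large subunit, 0.781 (0.720 to 0.847) for Mrpl34 and 0.786 (0.686 to 0.900) for Mrps25. Of the 75 members, 47 had a lower and 28 a higher CPM in UPM, where 49.1% of all genes measured had a higher one. The median log2 fold was −0.06 over 48 Mrpl genes, −0.01 over 27 Mrps genes and −0.00 over all genes measured. With a mean of at least 30 CPM asked for, it was −0.06 for Mrpl and −0.10 for Mrps, so the order of the subunits depends on the minimum.

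Each trazodone library was set against UPM, so these comparisons share the UPM library and are not independent of each other. TZ 1.25 called 0 members, where 2.22% of 8336 genes were called (1.19% higher, 1.03% lower). TZ 2.5 called 0, where 4.4% of 8337 were (2.67% higher, 1.73% lower). TZ 5 called 1 higher and 1 lower, where 6.57% of 8367 were (3.78% higher, 2.8% lower). Median log2 folds over UPM for Mrpl were 0.04, 0.06 and 0.09 at the 3 doses in rising order, and for Mrps −0.09, 0.06 and 0.12, against −0.00, −0.01 and 0.00 for all genes. The Mrps medians depended on the minimum level, with −0.01 at TZ 1.25 for a mean of at least 30 CPM, and at TZ 2.5 with 0.15 for at least 1 CPM and 0.11 for at least 30 CPM. Members with a higher CPM than in UPM numbered 39, 46 and 47 of 75, where 49.2%, 49.2% and 50.7% of all genes were higher. Those higher than in control numbered 26, 39 and 35 of 75, where 46.5%, 48.0% and 50.7% of all genes were. Median log2 folds over control for Mrpl were −0.03, −0.00 and −0.03, and for Mrps −0.09, 0.05 and −0.03. Those of all genes were −0.01, −0.01 and 0.01. UPM was the lowest library for 28 of the 75 members, against 23.3% of all 8341 genes with a mean of at least 10 CPM.

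Mrps27 was called lower in TZ 5. Its level was 25.7 CPM (control), 40.5 (UPM), 27.2 (TZ 1.25), 27.3 (TZ 2.5) and 23.1 (TZ 5), from 193, 310, 196, 189 and 159 counts. Only the UPM library was high, and the trazodone libraries lay near control. Its folds over UPM were 0.670 (0.558 to 0.804) at TZ 1.25 and 0.673 (0.559 to 0.810) at TZ 2.5, both just short of the limit, and 0.569 (0.467 to 0.691) at TZ 5. Over control the folds were 1.06 (0.862 to 1.30), 1.06 (0.864 to 1.30) and 0.898 (0.723 to 1.11).

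Mrpl55, whose product is the mitochondrial counterpart of bacterial L31, was called higher in TZ 5. It had 18.4 CPM (control), 15.2 (UPM), 19.4 (TZ 1.25), 19.2 (TZ 2.5) and 23.5 (TZ 5). The fold over UPM was 1.55 (1.21 to 1.98) at TZ 5, where UPM was the lowest library, and over control it was 1.28 (1.01 to 1.62). Against control 1 further member was called, Mrpl22, the homologue of a bacterial protein that lines the exit tunnel. Mrpl22 had 10.9 CPM in control and 14.9 to 16.5 CPM in the 4 UPM-exposed libraries, and was called at TZ 2.5 alone with 1.51-fold (1.13 to 2.03), where 3.62% of genes were called (2.21% higher, 1.41% lower). Its folds over control of 1.49 at TZ 1.25 and 1.37 at TZ 5 lay under the limit. With DESeq2 size factors as scaling the fold at TZ 2.5 was just under 1.5 and 0 members were called there. Against control TZ 1.25 called 0 members, where 2.38% of genes were called (1.56% higher, 0.821% lower), and TZ 5 called 0, where 6.06% were (3.55% higher, 2.51% lower).

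**Figure D3:**
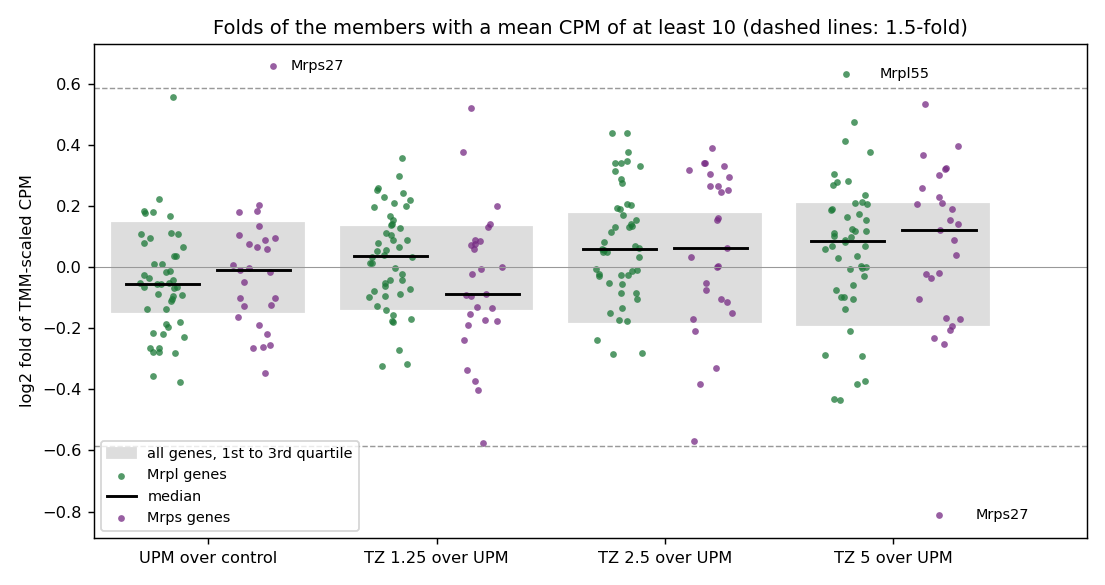
Log2 folds of the 75 members with a mean of at least 10 CPM in 4 comparisons, with Mrpl and Mrps genes as separate columns of points, black bars at their medians, grey bands for the quartiles of all genes measured and dashed lines at 1.5-fold. Mrps27 and Mrpl55 are the points beyond the dashed lines, and the medians lie between −0.09 and 0.12.

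The other extreme members over UPM were not called. At TZ 1.25 Mrps16, the homologue of bacterial S16, was 1.44-fold (1.19 to 1.74), with 35.5 CPM in TZ 1.25 and 24.7 CPM in UPM, and it remained at 32.3 and 32.5 CPM in TZ 2.5 and TZ 5 beside 25.6 CPM in control. Mrps25 was 1.30-fold (1.13 to 1.49) and Mrps28 0.757-fold (0.592 to 0.965) at that dose. At TZ 2.5 Mrpl33 and Mrpl48 were both 1.36-fold (1.25 to 1.47 and 1.12 to 1.64), and Mrps33 was 0.766-fold (0.554 to 1.05). At TZ 5 Mrps14 was 1.45-fold (1.25 to 1.67) and Mrpl33 1.39-fold (1.28 to 1.51), while Mrpl27 was 0.741-fold (0.662 to 0.828) and Mrpl4 0.739-fold (0.664 to 0.822).

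The dose trend was tested with edgeR's quasi-likelihood test, fitted to 12381 genes in all 5 libraries with a term for UPM and a linear term for trazodone dose. Slopes are log2 changes per μg/mL. At a Benjamini-Hochberg adjusted p under 0.05 over all genes, 5 of the 78 members were called, 3 that rose and 2 that fell, where 5.44% of all genes were called. The share of members called, 3 of 78 rising and 2 of 78 falling, was near the 2.95% and 2.5% of all genes. The fit has 2 residual degrees of freedom and borrows 48.7 from other genes, so its p-values rest mainly on spread common to genes of like abundance.

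Mrpl33, homologue of the small bacterial protein L33, rose with dose. Its level was 168 CPM (control), 144 (UPM), 160.1 (TZ 1.25), 195 (TZ 2.5) and 200.01 (TZ 5). The slope was 0.10 (SE 0.02, edgeR adjusted p = 0.0101). Mrpl12, the stalk protein that recruits translation factors to the ribosome, had 185 CPM (control), 163 (UPM), 172 (TZ 1.25), 206 (TZ 2.5) and 217 (TZ 5). Its slope was 0.09 (SE 0.02, edgeR adjusted p = 0.0181). Both genes were lower in UPM than in control, at 0.854-fold (0.787 to 0.926) and 0.879-fold (0.814 to 0.949), and higher in TZ 5 than in control, at 1.19-fold (1.10 to 1.28) and 1.17-fold (1.09 to 1.26). Mrps14, of the small subunit head, had 50.6 CPM (control), 45.2 (UPM), 45.0 (TZ 1.25), 55.9 (TZ 2.5) and 65.4 (TZ 5). TZ 5 was its highest library, at 1.29-fold over control (1.13 to 1.49), and the slope was 0.12 (SE 0.03, edgeR adjusted p = 0.0223).

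Mrpl27, homologue of bacterial L27 near the peptidyl transferase centre, fell with dose. It had 90.9 CPM (control), 103 (UPM), 98.7 (TZ 1.25), 87.3 (TZ 2.5) and 76.3 (TZ 5), with a slope of −0.09 (SE 0.03, edgeR adjusted p = 0.0419). Its levels declined step by step from UPM to TZ 5, and TZ 5 lay under control at 0.839-fold (0.748 to 0.942). Mrps27 had a slope of −0.15 (SE 0.04, edgeR adjusted p = 0.0237), although its levels did not descend step by step but were high in UPM and near control at each dose. Mrpl4, whose product lines the exit tunnel, lay just outside the limit with a slope of −0.08 (SE 0.03, edgeR adjusted p = 0.0537) and 106 CPM (control), 114 (UPM), 103 (TZ 1.25), 101 (TZ 2.5) and 84.1 (TZ 5).

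The calls depended on which libraries were fitted, and shares of all genes in fits with a library left out are not given here. Without the UPM library 0 members were called (7 had an unadjusted p under 0.05), and without TZ 5 only Mrpl33 was. DESeq2's Wald test called Mrpl33 and Mrpl12, where it called 322 of all 12381 genes. It gave no adjusted p for 35 of the 78 members, Mrps27 among them. Over the alternatives run, 9 per gene and 8 for Mrps27, Mrpl33 was called in 8, Mrpl12 in 7, Mrps14 in 6, Mrps27 in 5 and Mrpl27 in 2. The sign of each slope was the same in all of these, but some sizes moved. Without UPM the slope of Mrps27 was −0.07, and the slopes of the others were 0.07 (Mrpl33), 0.08 (Mrpl12), 0.13 (Mrps14) and −0.10 (Mrpl27). Without TZ 5 the slopes were −0.24 (Mrps27), 0.17 (Mrpl33), 0.13 (Mrpl12), 0.12 (Mrps14) and −0.10 (Mrpl27).

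**Figure D4:**
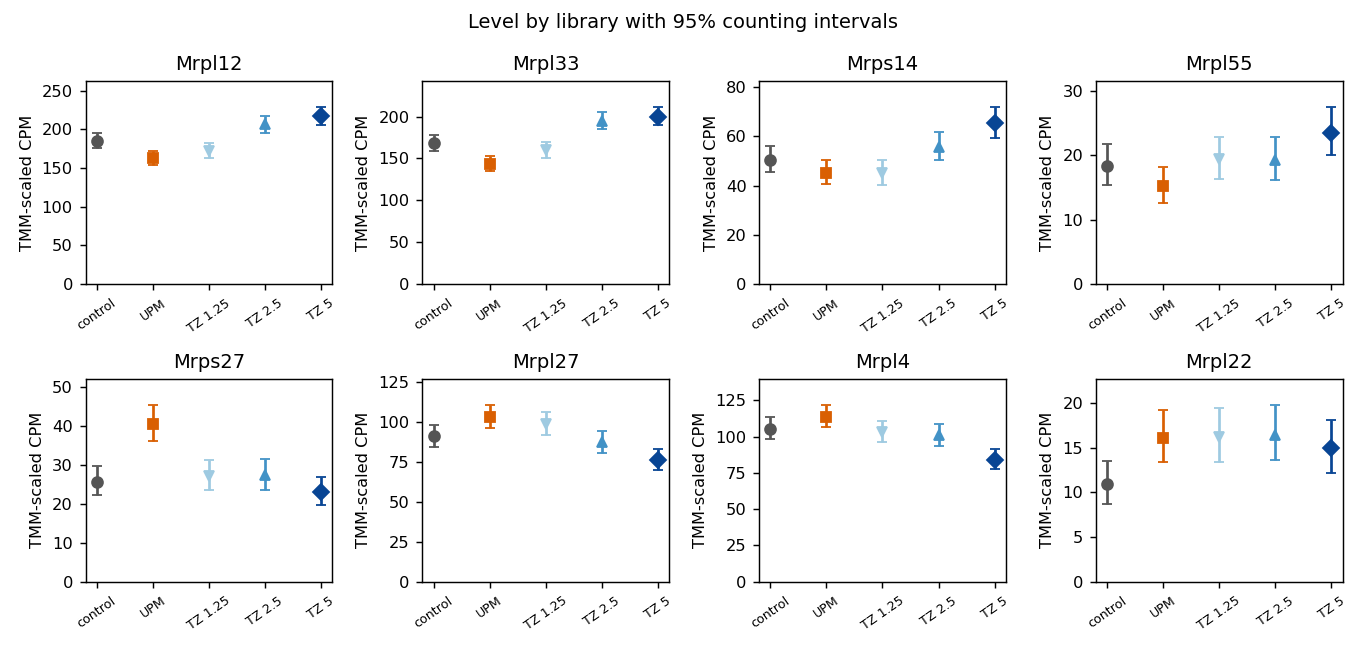
TMM-scaled CPM by library with 95% counting intervals for 8 members. Mrpl12, Mrpl33 and Mrps14 are highest in TZ 5, Mrps27 is high in UPM alone, Mrpl27 and Mrpl4 are lowest in TZ 5, Mrpl55 is lowest in UPM and Mrpl22 is lowest in control.

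The UPM term of the same fit called 0 of 78 members, where 0.113% of all genes were called (0.0808% rose, 0.0323% fell). An unadjusted p under 0.05 was found for 3 of them, Mrps27, Mrpl22 and Mrpl20, where 964 of all 12381 genes had one. DESeq2 called 0 of the members and 4 of all genes. Mrps27 had a log2 estimate of 0.50 (SE 0.19, edgeR adjusted p = 0.514), Mrpl22 of 0.59 (SE 0.26, edgeR adjusted p = 0.599) and Mrpl20 of −0.23 (SE 0.11, edgeR adjusted p = 0.639). This term sets the lone control against 4 exposed libraries and assumes that the control varies as they do around the dose line.

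Members were then read by structural class. Mrps30 and Mrps18a were counted with the large subunit by position. Both were classed as specific to mitochondria, although the family of Mrps18a is related to bacterial S18. Of large-subunit proteins in that class, 18 of 21 had a higher CPM in TZ 5 than in UPM, with a median log2 fold of 0.15 and 0 called. For large-subunit proteins with a bacterial homologue it was 15 of 29 measured, with a median of 0.03 and a range from −0.44 (Mrpl4) to 0.63 (Mrpl55). Small-subunit proteins with a homologue had a median of 0.17 and 10 of 16 higher, and those without one had a median of −0.02 and 4 of 9 higher. Over all genes measured 50.7% were higher in TZ 5 than in UPM. Mitochondria-specific large-subunit genes had 12 of 21 higher than UPM at TZ 1.25 and 14 of 21 at TZ 2.5. Those with a homologue had 18 and 17 of 29, and all genes 49.2% at both doses. In UPM, 16 of 21 and 18 of 29 were lower than in control. In TZ 5, 14 of 21 and 9 of 29 were higher than in control, where 50.7% of all genes were. All folds over UPM share that library. Of the 5 members called for dose, Mrpl33, Mrpl12, Mrpl27 and Mrps14 have bacterial homologues and Mrps27 has none. No difference between the classes was tested.

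The stalk-base genes Mrpl10 and Mrpl11 were not called, unlike Mrpl12, and the difference was not tested. Mrpl10 had 71.2 CPM in control and 59.2 to 61.9 CPM in the 4 exposed libraries, with a dose slope of −0.00 (SE 0.03, edgeR adjusted p = 0.999). Mrpl11 had 38.0 to 43.6 CPM over the 5 libraries. Mrpl3, of the peptidyl transferase region, lay between 70.8 CPM (UPM) and 77.5 CPM (TZ 2.5), and Mrpl44, which has a domain related to ribonuclease III, between 32.1 CPM (TZ 2.5) and 36.2 CPM (control). Mrps12, of the decoding centre, was lowest in UPM at 83.2 CPM and highest in TZ 2.5 at 105 CPM. Mrpl58 was low in both UPM and TZ 5, at 37.6 and 37.7 CPM, beside 48.9 in control.

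The family related to bacterial S18 has 3 members. The dose fit called 0 of them, and the pair rule called neither Mrps18a nor Mrps18c, while Mrps18b lay under its minimum level. Mrps18a, now placed in the large subunit, had 96.0 CPM (control), 87.8 (UPM), 91.6 (TZ 1.25), 97.7 (TZ 2.5) and 101 (TZ 5). Mrps18c, the direct homologue in the small subunit, had 46.7 CPM (control), 53.1 (UPM), 58.1 (TZ 1.25), 53.1 (TZ 2.5) and 66.4 (TZ 5), and its TZ 5 level was 1.42-fold that of control (1.23 to 1.64), under the limit of 1.5. Mrps18b lay between 2.03 CPM (TZ 5) and 5.20 CPM (TZ 2.5), from 14 and 36 counts. Mrps30, also placed in the large subunit, was lowest in UPM at 55.2 CPM and highest in TZ 2.5 at 67.7 CPM. The neighbours Mrpl46 and Mrps11, which start beside each other, were lowest in different libraries. Mrpl46 had 46.7 CPM (control), 40.8 (UPM), 47.5 (TZ 1.25), 51.2 (TZ 2.5) and 52.9 (TZ 5), whereas Mrps11 had 38.2 CPM (control), 40.3 (UPM), 35.6 (TZ 1.25), 32.0 (TZ 2.5) and 33.8 (TZ 5). Neither was called, and their exons share bases on opposite strands, so their counts are less certain.

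Other genes of mitochondrial translation were read from lists. Ribosomal proteins with other symbols (Dap3, Ptcd3, Aurkaip1, Chchd1 and Gadd45gip1) had 0 of 5 called for dose, with 1 at an unadjusted p under 0.05 and 0 by DESeq2. Translation factors had 0 of 13, with 2 at an unadjusted p under 0.05 and 0 by DESeq2. By the pair rule 1 of 11 factors measured was called higher in UPM than in control, Mrrf, the ribosome recycling factor, at 1.72-fold (1.29 to 2.29), where 1.67% of all genes were called higher. In TZ 5 against UPM Mrrf was called lower at 0.643-fold (0.482 to 0.853) and Mtrfr, a factor that rescues stalled ribosomes, higher at 1.62-fold (1.22 to 2.15), 1 each of 11 measured, where 2.8% of all genes were called lower and 3.78% higher. Of assembly and ribosomal RNA modification genes 2 of 27 rose with dose and 0 fell, where 2.95% of all genes rose, and DESeq2 called 0. These were Fastkd2, which binds the large ribosomal RNA, with a slope of 0.14 (SE 0.04, edgeR adjusted p = 0.0395), and Ngrn, needed for large-subunit assembly, with a slope of 0.12 (SE 0.04, edgeR adjusted p = 0.0325). Eral1, a chaperone of the small ribosomal RNA, was called higher than UPM at all 3 doses, with folds of 1.71, 1.70 and 1.51, and Fastkd2 at 1.64-fold and Mrm3, a ribosomal RNA methyltransferase, at 1.53-fold were called in TZ 5. That made 1, 1 and 3 of 18 measured at the 3 doses in rising order, where 1.19%, 2.67% and 3.78% of all genes were called higher. Against control Eral1 was also called at all 3 doses, with folds of 1.72, 1.72 and 1.53, where 1.56%, 2.21% and 3.55% of all genes were called higher. Also called there were Mrm1, another methyltransferase, at TZ 1.25 (1.74-fold, 1.24 to 2.45), Mtrfr (1.80-fold, 1.34 to 2.42) and the large-subunit assembly factor Malsu1 (1.52-fold, 1.22 to 1.91) at TZ 5, and the elongation factor Tufm, lower at TZ 2.5 (0.656-fold, 0.483 to 0.887). Tufm had 10.4 to 15.8 CPM, low for a gene that is usually abundant, and whether its symbol holds all its reads was not tested. The genes of these lists that the pair rule called averaged 10.4 to 23.6 CPM in the pairs that called them.

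Among 6 genes of mitochondrial transcription and RNA stability 1 rose with dose and 0 fell, where 2.95% of all genes rose and 2.5% fell. It was Lrpprc, whose protein stabilises mitochondrial messenger RNAs, with 109 CPM (control), 77.9 (UPM), 92.3 (TZ 1.25), 131 (TZ 2.5) and 143 (TZ 5) (slope 0.18, SE 0.03, edgeR adjusted p = 2.07e-05). By the pair rule Lrpprc was called higher than UPM at TZ 2.5 (1.69-fold, 1.52 to 1.87) and TZ 5 (1.84-fold, 1.66 to 2.04). That was 1 of 6 measured at each of these doses, where 2.67% and 3.78% of all genes were called higher. Against control 0 of 5 measured were called at each dose. The RNAs that mitochondrial ribosomes hold and read did not share a course over the same libraries. The 2 mitochondrial ribosomal RNAs made up 7.94% (control), 8.80% (UPM), 8.64% (TZ 1.25), 7.0% (TZ 2.5) and 7.06% (TZ 5) of counts. Mitochondrial messenger RNAs made up 3.74% (control), 3.71% (UPM), 3.97% (TZ 1.25), 4.38% (TZ 2.5) and 4.85% (TZ 5), and 6 of the 13 were listed with at most 5 counts in every library. Small nucleolar RNAs, which lack a long poly(A) tail, made up 0.0854% (control), 0.108% (UPM), 0.0995% (TZ 1.25), 0.0645% (TZ 2.5) and 0.0458% (TZ 5). Their part in the dose slopes of the members was not tested.

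Cytosolic ribosomal protein genes, chosen by symbol in the same way, were set beside the members. Of 82 tested, 20 rose and 2 fell with dose by the edgeR adjusted p, against 3 and 2 of the 78 members. Of all genes tested, 2.95% rose and 2.5% fell. In TZ 5 against UPM 9 of 79 measured were called higher and 0 lower, with a median log2 fold of 0.14, against 1 higher and 1 lower of 75 members with a median of 0.09. The cytosolic genes had a median level of 364 CPM and the members 56.3 CPM. The highest library was at least 1.5-fold the lowest for 18 of 79 cytosolic genes with a mean of at least 10 CPM. This was so for 3 of 75 members and 16.8% of all such genes. The part of level in the counts called was not tested. The difference between these groups was not tested.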

How the data were processed

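The 5 libraries of BV-2 cells were compared, 1 per group. The authors deposited a table of raw whole-number counts by gene symbol for each library. STAR, edgeR and GRCm39 are listed, without versions, in the submitters' processing notes. No source used here gives the read counter, annotation or strand handling. RNA was primed with oligo-dT (QuantSeq, single-end 75 bases), per the labels' protocols. Intervals cover counting error only and treat every read as a separate molecule. No molecular identifiers are described, so the intervals may be too narrow even for that.

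Folds were ratios of TMM-scaled CPM with 95% exact conditional binomial (Clopper-Pearson) intervals. Intervals of levels were exact Poisson, and those of shares were not printed. The dose fit used edgeR 4.0.16 (limma 3.58.1, R 4.3.3) after filterByExpr, with standard errors computed as the absolute log2 estimate over √F. DESeq2 1.42.0 was an alternative. Both procedures were tested on simulated data. The members and lists were chosen with earlier results of these data known, and class and role lists follow textbook structures. Named members were those called, the 3 highest and 3 lowest folds of UPM over control and TZ 5 over UPM (2 and 2 for the other doses over UPM), those called by a term of the fit or else the 3 with its smallest p, the 5 highest and 5 lowest levels, and a list with known roles. Mrpl46, Mrps11 and Mrps2 were singled out after their values were seen. RefSeq promoter windows are of GRCm38.p6. Alternatives covered scaling, fold, CPM minimum, filter, dose as rank, DESeq2 and each exposed library left out.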

Additional observations from a re-analysis of the deposited data

How the results depend on the processing

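Of 173 checks of counts, medians and sums, 150 stayed within the limits set (1.5 times for a count, the counting interval for a sum, the median counting interval of single members for a median), and 0 called values changed sign. The median log2 fold of Mrpl in TZ 2.5 over control, −0.00, was 0.03 with total counts as scaling. Shares of all genes for alternative folds, minimums, scalings and fits with a library left out are not given here. The counts of members at these settings therefore cannot be read against all genes. A fold of at least 1.25 called 5 members in UPM over control, 7 in TZ 1.25, 12 in TZ 2.5 and 13 in TZ 5 over UPM, and 3, 9 and 13 in the 3 doses over control. A fold of at least 2 called 0 in UPM over control, in TZ 5 over UPM and in TZ 2.5 over control. A mean CPM of at least 1 added 1 in TZ 2.5 over UPM, where Mrps36 has 13 counts beside 4, and Mrps18b, lower, in TZ 5 over UPM (3 called) and in TZ 5 over control (1 called), while a mean of at least 30 left 1 in TZ 5 over UPM and 0 in TZ 2.5 over control. DESeq2 size factors left 0 in TZ 2.5 over control. With total counts as scaling the Mrpl sum in TZ 2.5 was 1.07 of UPM and 1.03 of control. Without Mrps5, the most abundant member, the Mrps sum in TZ 2.5 was 1.07 of UPM and 1.03 of control. In the dose fit DESeq2 called 2 of the members to which it gave an adjusted p (35 of 78 had none), and leaving out 1 exposed library called 0 (without UPM) to 4 (without TZ 1.25), with 3 without TZ 2.5 and 1 without TZ 5. The adjusted p of the 5 dose members ranged over alternatives from 0.00187 to 0.319 for Mrpl33, 0.00485 to 0.252 for Mrpl12, 0.0154 to 0.472 for Mrps14, 0.0045 to 0.731 for Mrps27 and 0.0261 to 0.470 for Mrpl27. The cause was not tested. The UPM term called 0 members in all 10 alternatives. No paired analysis was possible because each group has 1 library. Depth limits the 3 members under 10 CPM, for which a 1.5-fold difference cannot be resolved.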
